A study of Mus musculus with 2 samples.

Results

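The genes described here encode the COPII and COPI vesicle coats and the receptors, SNAREs and tether that work with them between the endoplasmic reticulum (ER) and the Golgi apparatus. They are 37 genes of 36980 gene symbols in the deposited table, chosen by name for their function, with earlier results of these data known. For each, the listed transcript with the highest mean RPKM (a read count divided by transcript length and library size) over the libraries stood for the gene. They were measured in cultured mouse pro-B cells, B cell precursors of the bone marrow, that had been purified by flow cytometry and grown for 4 days with interleukin 7 at 5 ng/µl. One library came from cells with the alleles labelled Setdb1 C/C and 1 from cells labelled Setdb1 Δ/Δ, in which the gene for the histone H3K9 methyltransferase SETDB1 is deleted. Cells of both genotypes also carried a bcl2 transgene (bcl2-tg). The labels name neither its promoter, nor the recombinase that made the deletion, nor the sex, age, strain or number of the animals.

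COPII is the coat that buds vesicles from ER exit sites. The GTPase SAR1, loaded by its exchange factor PREB (SEC12), recruits SEC23-SEC24, in which SEC24 binds the cargo, and then the outer cage of SEC13-SEC31. COPI is the coatomer coat, which returns escaped ER proteins and recycling receptors from the Golgi. Cells that secrete much protein, such as plasma cells, enlarge this apparatus, and the transcription factor XBP1 is known for raising many of its genes there.

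With 1 library per genotype, each difference below is between these 2 libraries, has no replicate check and carries no p-value. In such bulk RNA, fewer cells of a type and less RNA per cell cannot be told apart. Genes reaching 1 RPKM in either library counted as measured. A measured gene counted as higher in Δ/Δ with a log2((Δ/Δ + 0.5)/(C/C + 0.5)) of its RPKM of at least 1, and as lower with at most -1, a 2-fold change on that scale. This scale understates changes of genes near 0. Ratios beside RPKM values are plain ratios, and their 95% intervals are exact intervals for the ratio of 2 Poisson rates, which cover counting error only. Depths recovered from the values were about 170.6 M reads (C/C) and 193.3 M reads (Δ/Δ).

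Setdb1 itself measured 17.0 RPKM in C/C against 12.6 RPKM in Δ/Δ over the whole transcript, a ratio of 0.743 (interval 0.717 to 0.770), which does not show how complete the deletion was. Of 14 B lineage markers, all measured, 4 were lower (Cd79a, Rag1, Pax5 and Cd79b) and 1 higher (Vpreb2), their median log2 ratio was -0.53, and their sum was 5393 and 4437 RPKM. Cd79a went from 548 to 153 RPKM and Pax5 from 201 to 97.5 RPKM. Of the surrogate light chain genes, Vpreb1 (745 and 893 RPKM) and Igll1 (785 and 766 RPKM) differed less, but Vpreb2 measured 421 and 894 RPKM. Markers of other blood cells differed between the libraries. Of 19 myeloid markers, 15 were measured, of which 11 were higher and 0 lower. Over all measured genes 6.28% were higher and 6.66% lower. Some of the 11, such as S100a8 and Ngp (0.463 and 0.342 RPKM in C/C), counted as measured only through Δ/Δ. The filter thus favours higher calls among them. The summed level of all 19 went from 141 RPKM in C/C to 393 RPKM in Δ/Δ. The sums were 1.72 and 13.6 RPKM for 8 dendritic cell markers and 9.33 and 77.97 RPKM for 12 erythroid and megakaryocyte markers. The 7 mast cell and basophil markers summed to 1.95 RPKM in Δ/Δ. The defining genes Mpo and Elane (myeloid) and 6 of the 7 mast cell and basophil markers were listed at 0 in C/C. Cma1 and Mcpt4, of the latter, were at 0 in both libraries. Xist, transcribed from the inactive X chromosome, measured 0.0940 and 23.7 RPKM, so genotype and sex of the cells cannot be told apart. The part of these differences in the values below was not tested.

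The coat and receptor genes listed here were mostly a little more abundant in the Δ/Δ library, and 1 of them, the COPII cargo adaptor gene Sec24d, was far more abundant. Other lists of ER-Golgi genes, given below, had median log2 ratios from -0.24 (ARF cycle) to 0.08 (tethers), except COPII regulators at 0.27. Of the 37 genes 36 were measured, all but Kdelr3. By the 2-fold rule 3 of the 36 were higher in Δ/Δ (Sec24d, Bet1 and Tmed10), beside 6.28% of the 12556 measured genes of the table. None was lower, beside 6.66%. A share of 3 in 36 is near that background, so the 2-fold count alone shows nothing about the group. The whole distribution lay higher: 33 of the 36 had a log2 ratio above 0, against 42.2% of all measured genes. The genes were chosen with earlier results of these data known, and the part of that choice in this shift was not tested. At 1.5-fold, 8 of the 36 were higher and 0 lower, against 12.6% and 16.7% of all measured genes.

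The median log2 ratio of the 36 was 0.36 (quartiles 0.24 and 0.55), and that of all measured genes was -0.09 (quartiles -0.42 and 0.26). Among the 36, 23 lay above the upper quartile of all genes. Summed over the 37 genes, the level was 1288 RPKM in C/C against 1765 RPKM in Δ/Δ, a ratio of 1.37. The counting interval lay on 1 side of a ratio of 1 for 35 of the 36, and Sar1b was the exception, on a non-coding transcript. The p24 cargo receptors had the highest median among the 6 functional groups at 0.69, followed by the export receptors at 0.59, SNAREs and tether at 0.49, COPI at 0.41 and COPII at 0.28. The 2 measured KDEL receptor genes went opposite ways, with a median of 0.05, which was -0.09 when the unmeasured Kdelr3 was counted.

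**Figure D1:**
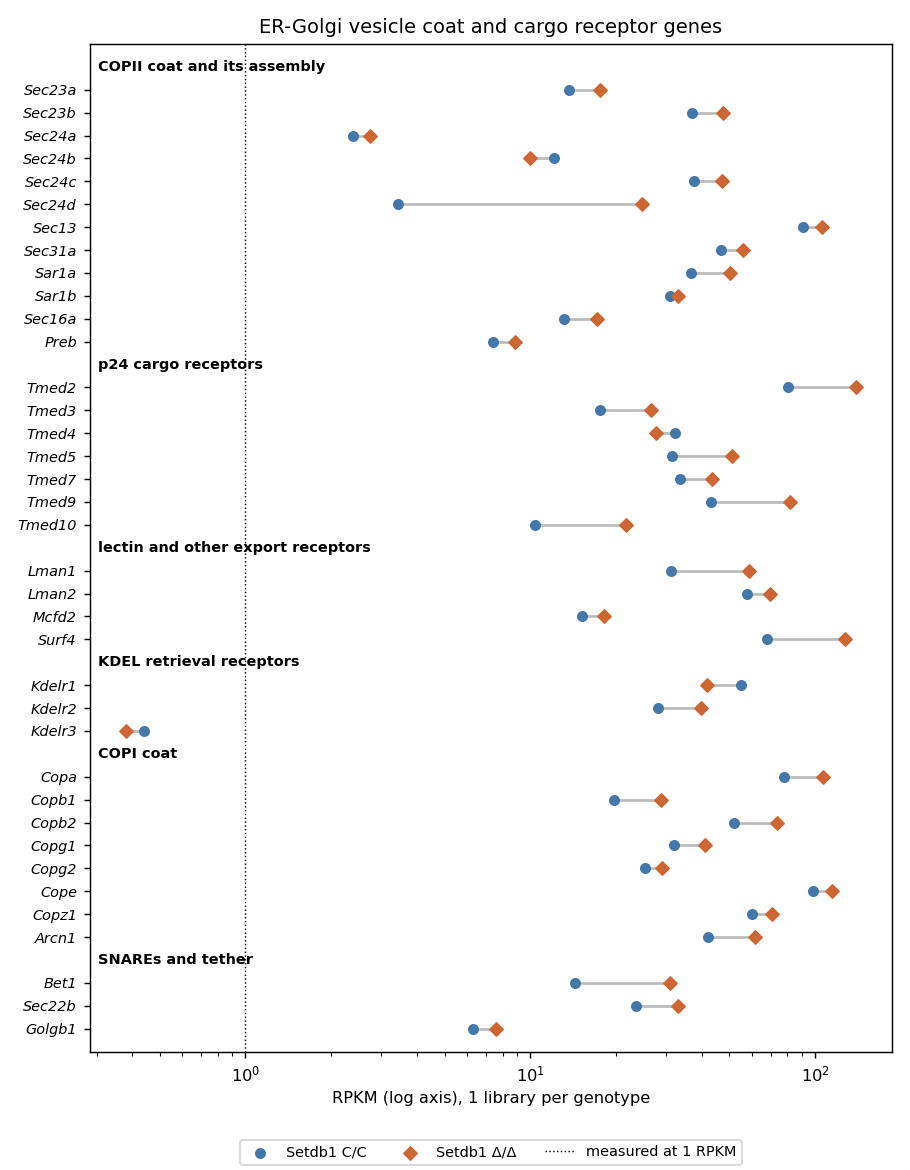
Level of each of the 37 genes in RPKM (log axis) in the C/C library (circles) and the Δ/Δ library (diamonds), grouped by role, with a dotted line at the 1 RPKM limit for measured genes. Sec24d shows the widest gap (3.45 and 24.6 RPKM), the diamonds lie right of the circles for 33 of the 36 measured genes, and Kdelr3 lies below the limit in both libraries.

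Among the COPII genes, Sec24d stood apart from the other 11. Sec24d (ENSMUST00000047923, GRCm38 chromosome 3, 123267455 to 123365641, plus strand, its only listed transcript) encodes 1 of the 4 SEC24 proteins, the subunit that picks cargo for the vesicle. It measured 3.45 RPKM in C/C against 24.6 RPKM in Δ/Δ, from 2294 and 18549 reads. The ratio was 7.14 (interval 6.71 to 7.60) and the log2 ratio 2.67, which also passed a 4-fold rule. No other measured gene overlaps its span. Mettl14, the next gene downstream on the opposite strand, measured 4.26 and 7.89 RPKM (log2 ratio 0.82), and the neighbours Usp53 (1.98 and 2.01 RPKM) and Prss12 (1.90 and 1.84 RPKM) had log2 ratios of 0.02 and -0.04.

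The other SEC24 genes showed no such gap. Sec24c, the most abundant of the 4 in both libraries, measured 37.7 and 47.0 RPKM (ratio 1.24, interval 1.22 to 1.27). Sec24a stayed low at 2.39 and 2.73 RPKM. Sec24b measured 12.1 and 9.97 RPKM on a retained-intron transcript (ratio 0.822) and 10.1 and 8.24 RPKM on its most abundant coding one (ratio 0.817). On its longest protein-coding transcript it measured 6.51 and 6.53 RPKM, so its direction depends on the transcript. Sec24d made up 6.18% of the summed RPKM of the 4 genes in C/C and 29.2% in Δ/Δ, while Sec24c made up 67.7% and 55.7%. With the longest coding transcript of each gene, the share of Sec24d was 7.04% and 30.8%. The family sum was 55.7 and 84.2 RPKM, a ratio of 1.51.

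The remaining COPII genes lay within the rule, and their ratios ran from 1.07 to 1.38 on the transcripts that stood for them. Sec23a and Sec23b encode the GTPase-activating partner of SEC24. Sec23b was the more abundant (37.1 and 47.4 RPKM, ratio 1.28, interval 1.24 to 1.31), and Sec23a (13.7 and 17.5 RPKM) had the same ratio of 1.28, so that Sec23a kept 26.9% and 27.0% of their sum. The outer cage genes Sec13 (90.6 and 106 RPKM) and Sec31a (46.9 and 55.9 RPKM) had ratios of 1.17 and 1.19. The Sec31a transcript was a short one, and its longest coding transcript measured 32.5 and 45.1 RPKM (ratio 1.39). SEC13 also serves in the nuclear pore.

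The GTPase gene Sar1a measured 36.6 and 50.4 RPKM (ratio 1.38, interval 1.34 to 1.42). Its paralogue Sar1b measured 31.0 and 33.1 RPKM on a short non-coding transcript, with an interval of 0.980 to 1.16. On its coding transcript Sar1b was at 21.8 and 24.96 RPKM (ratio 1.15, interval 1.08 to 1.21), above 1. Sar1a made up 54.1% of their sum in C/C and 60.4% in Δ/Δ, or 62.7% and 66.9% with the longest coding transcripts. Sec16a, the scaffold of ER exit sites, measured 13.1 and 17.2 RPKM (ratio 1.31), and Preb measured 7.43 and 8.82 RPKM (ratio 1.19). An overlapping gene on the other strand of Preb, Abhd1, measured 5.82 and 4.13 RPKM, and the library kit does not mark strand.

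**Figure D2:**
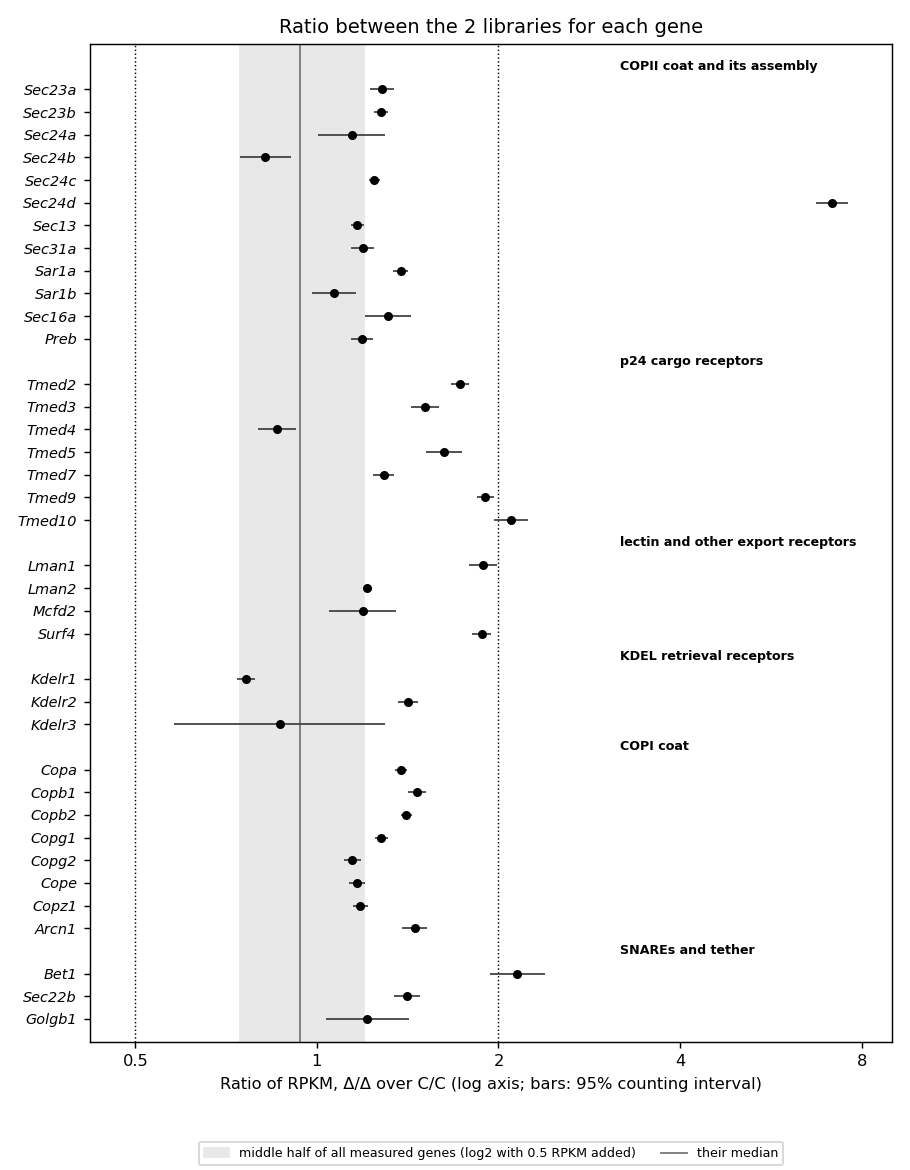
Ratio of the Δ/Δ to the C/C RPKM of each of the 37 genes (log axis) with its 95% counting interval, dotted lines at 2-fold, and a grey band from the lower to the upper quartile of all 12556 measured genes around their median. Sec24d lies alone at 7.14, Bet1 (2.15) and Tmed10 (2.10) lie just past 2-fold, and the COPI genes lie close together between 1.15 and 1.47.

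The p24 proteins are small membrane proteins that cycle between ER and Golgi as heteromers, bind both coats and carry cargo such as GPI-anchored proteins. Of their 7 genes 4 were higher at 1.5-fold, beside 12.6% of all measured genes. This was the largest share among the groups, but the export receptors came close with 2 of 4, and single genes decide the order. Tmed10 (ENSMUST00000040766, GRCm38 chromosome 12, 85342788 to 85374847, minus strand), the delta member, measured 10.4 RPKM in C/C against 21.7 RPKM in Δ/Δ. Its ratio was 2.10 (interval 1.96 to 2.24) and its log2 ratio 1.03, just past the rule. Tmed2, the beta member and the usual partner of TMED10, was the most abundant of the family at 80.6 and 139 RPKM (ratio 1.73, interval 1.67 to 1.79).

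The alpha members went apart. Tmed9 measured 43.0 and 81.8 RPKM (ratio 1.90, interval 1.84 to 1.97), and its log2 ratio of 0.92 became 1.01 after centring on the median of all genes. Tmed4 measured 32.3 and 27.7 RPKM (ratio 0.859, interval 0.798 to 0.924). Tmed9 made up 57.1% of their sum in C/C and 74.7% in Δ/Δ, or 73.0% and 85.2% with the longest coding transcripts. Each sum had more Tmed9 than Tmed4, and more so in Δ/Δ.

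The gamma members went the same way as one another. Tmed5 measured 31.4 and 51.0 RPKM (ratio 1.62) on a short transcript and 5.62 and 12.9 RPKM on its longest coding one, whose log2 ratio of 1.13 passed the rule. Tmed5 overlaps Mtf2 on the other strand (31.1 and 44.5 RPKM). Tmed3 measured 17.6 and 26.6 RPKM (ratio 1.51) and Tmed7 33.7 and 43.5 RPKM (ratio 1.29). The share of each gamma gene in their sum differed by at most 4.81 percentage points between the libraries, but with the longest coding transcripts Tmed5 went from 13.1% to 19.8% and Tmed7 from 45.8% to 39.3%.

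Export receptors load soluble cargo into COPII vesicles. Surf4, which encodes a cargo receptor for many secreted proteins, measured 68.0 RPKM in C/C against 128 RPKM in Δ/Δ (ratio 1.88, interval 1.81 to 1.94). Lman1, which encodes the mannose lectin ERGIC-53, measured 31.1 and 58.6 RPKM (ratio 1.88, interval 1.78 to 1.99). Both lay just short of the rule at a log2 ratio of 0.90. On their most abundant coding transcripts both passed it, with 1.07 for Lman1 and 1.05 for Surf4. On the longest coding transcripts Lman1 passed it (1.09) and Surf4 did not (0.81).

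MCFD2 is the partner of LMAN1 in the export of coagulation factors. Its gene did not share the ratio of Lman1, with 15.2 and 18.1 RPKM (ratio 1.19, interval 1.05 to 1.35, clear of that of Lman1). The related lectin gene Lman2 was abundant in both libraries at 57.5 and 69.7 RPKM, a ratio of 1.21.

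KDEL receptors return ER-resident chaperones that have escaped to the Golgi. Kdelr1 measured 54.8 RPKM in C/C against 41.8 RPKM in Δ/Δ (ratio 0.763, interval 0.738 to 0.789), the lowest ratio among the 36 measured genes. Kdelr2 measured 28.1 and 39.8 RPKM (ratio 1.42, interval 1.36 to 1.47). Kdelr1 was the more abundant in C/C, and the 2 genes were nearly level in Δ/Δ. Their shares of the family sum were 65.7% and 51.0% for Kdelr1 and 33.7% and 48.6% for Kdelr2. The sum itself hardly differed, at 83.3 and 82.0 RPKM. Kdelr3 was low in both libraries (0.439 and 0.381 RPKM, 106 and 104 reads) and lies across Ddx17 on the other strand (139 and 86.6 RPKM).

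**Figure D3:**
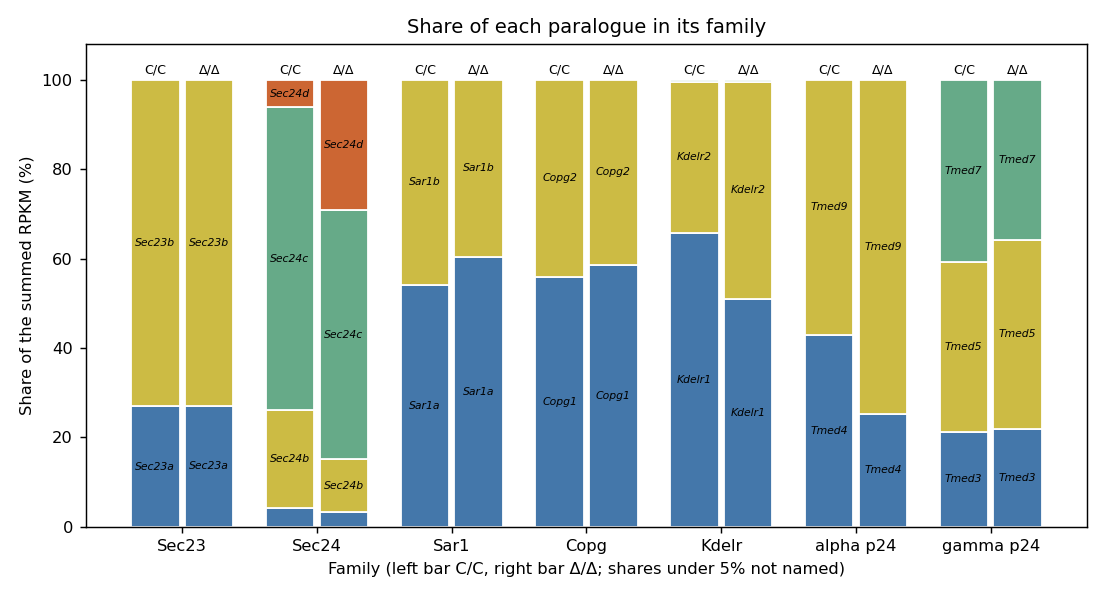
Share (%) of each paralogue in the summed RPKM of its family, with the left bar for C/C and the right bar for Δ/Δ. Sec24d grows from 6.18% to 29.2%, Kdelr2 from 33.7% to 48.6% and Tmed9 from 57.1% to 74.7%, whereas the Sec23 pair keeps its split.

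The 8 genes of the COPI coat were all more abundant in Δ/Δ, by a similar and modest factor. On the transcripts that stood for them, 0 passed the 2-fold or the 1.5-fold rule, beside 6.28% and 12.6% of all measured genes that were higher. On its coding transcript Arcn1 passed 1.5-fold. Their ratios ran from 1.15 to 1.47, and all 8 counting intervals lay above 1. Their summed level was 407 RPKM in C/C against 526 RPKM in Δ/Δ, a ratio of 1.29. Coatomer is recruited to membranes as a whole complex, with a cage layer of alpha, beta prime and epsilon subunits and an inner layer of beta, gamma, delta and zeta subunits.

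In the cage layer, Copa (alpha) measured 77.6 and 107 RPKM (ratio 1.38, interval 1.35 to 1.41) and Copb2 (beta prime) 52.1 and 73.2 RPKM (ratio 1.41, interval 1.38 to 1.44). Cope (epsilon), the most abundant at 98.6 and 115 RPKM, had a lower ratio of 1.17 (interval 1.13 to 1.20). The members of this layer thus did not share 1 ratio within counting error.

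In the inner layer, Copb1 (beta) measured 19.6 and 28.8 RPKM (ratio 1.47, interval 1.42 to 1.52) and Arcn1 (delta) 42.2 and 61.4 RPKM (ratio 1.45, interval 1.38 to 1.52) on a non-coding transcript. On its coding transcript Arcn1 was at 27.9 and 44.7 RPKM (ratio 1.60, interval 1.56 to 1.64). These had the highest ratios of the coat, and their intervals overlap on the transcripts that stood for them but not on the coding one of Arcn1. Copz1 (zeta) measured 59.8 and 70.6 RPKM (ratio 1.18). The gamma paralogues Copg1 (32.1 and 41.1 RPKM, ratio 1.28) and Copg2 (25.3 and 29.0 RPKM, ratio 1.15) kept similar shares, with Copg1 at 55.9% of their sum in C/C and 58.6% in Δ/Δ.

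The last 3 genes act in vesicle docking and fusion. Bet1 (ENSMUST00000145696, GRCm38 chromosome 6, 4081495 to 4086930, minus strand), a SNARE of ER-derived vesicles, measured 14.4 RPKM in C/C against 31.0 RPKM in Δ/Δ. Its ratio was 2.15 (interval 1.94 to 2.39) and its log2 ratio 1.08. All 3 of its listed transcripts passed the rule, with log2 ratios of 1.04 to 1.32, and the coding one measured 5.77 and 15.1 RPKM. Sec22b, the SNARE that pairs with it, measured 23.4 and 33.1 RPKM (ratio 1.41, interval 1.34 to 1.48) on a transcript subject to decay and 21.7 and 24.6 RPKM (ratio 1.13) on its most abundant coding one, both below the interval of Bet1. Golgb1, which encodes the large Golgi tether giantin, measured 6.28 and 7.60 RPKM (ratio 1.21) on a short retained-intron transcript and 4.003 and 5.61 RPKM (ratio 1.40) on its most abundant coding one.

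To show where the starts of these genes carry letters known from ER stress promoters, the windows of 250 bases before to 50 after each start in the RefSeq table (GRCm38.p6) were searched on both strands. Of the 37 genes 31 matched a window by symbol. The motifs searched were the ER stress response element (ERSE: CCAAT and CCACG, 9 bases apart), the XBP1-binding core TGACGTG, the shorter ACGTG, which TGACGTG contains, and CCACG alone, which overlaps the complement of ACGTG. The 120 bases before the RefSeq start are given below, read 5′ to 3′, for the 3 genes past the rule and for 3 others. These are Copb1 and Kdelr3, which hold TGACGTG before that start, and Sec24c, the abundant paralogue of Sec24d. Some RefSeq starts differ from those of the transcripts that stood for the genes. The Tmed10 stretch lies wholly inside its transcript, and the last bases of the Sec24d, Copb1 and Sec24c stretches lie inside theirs. Capitals mark TGACGTG or its complement in the first 3, and ACGTG or its complement (overlapping as CACGTG in Tmed10) in the others. Bet1 has no capitals because neither of these is in its window.
Sec24d (chr3:123267376-123267495, plus strand): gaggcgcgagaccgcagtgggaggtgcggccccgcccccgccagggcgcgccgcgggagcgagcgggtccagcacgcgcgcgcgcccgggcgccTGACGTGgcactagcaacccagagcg
Copb1 (chr7:114254681-114254800, minus strand): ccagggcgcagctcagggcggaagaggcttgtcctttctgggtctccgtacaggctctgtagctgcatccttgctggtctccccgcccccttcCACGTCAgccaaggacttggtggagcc
Kdelr3 (chr15:79516288-79516407, plus strand): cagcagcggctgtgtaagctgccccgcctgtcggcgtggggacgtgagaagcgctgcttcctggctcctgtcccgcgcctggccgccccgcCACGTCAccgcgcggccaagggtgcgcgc
Tmed10 (chr12:85374718-85374837, minus strand): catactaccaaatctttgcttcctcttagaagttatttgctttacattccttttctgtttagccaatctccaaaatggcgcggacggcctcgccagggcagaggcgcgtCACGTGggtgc
Bet1 (chr6:4086931-4087050, minus strand): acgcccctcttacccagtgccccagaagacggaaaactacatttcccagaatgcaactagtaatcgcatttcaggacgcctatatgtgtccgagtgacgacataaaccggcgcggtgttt
Sec24c (chr14:20674201-20674320, plus strand): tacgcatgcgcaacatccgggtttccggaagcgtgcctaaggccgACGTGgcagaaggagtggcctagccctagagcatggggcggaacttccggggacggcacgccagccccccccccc

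TGACGTG lay in 5 of the 31 windows, those of Sec23a, Sec24d, Kdelr3, Copb1 and Copb2, which is 16.1% of the genes. It lay in 2.22% of all 27025 genes with a window and in 3.52% of the 8865 measured ones. In Sec24d it lay 26 to 20 bases before the RefSeq start, and in Copb1 27 to 21 bases before it. The transcripts that stood for these genes start farther upstream, at 123267455 (Sec24d) and 114254711 (Copb1). Both matches thus lie inside the measured transcripts. The 4 measured genes with it had a median log2 ratio of 0.51 and the 26 without it 0.29. Kdelr3, which has it too, was not measured. Over all measured genes with a window, the median was -0.007 with TGACGTG (312 genes) and -0.083 without it. ACGTG lay in 64.5% of the 31 windows, in 21.8% of those of all genes and in 29.8% of those of measured genes. The median was 0.35 both with it (19 genes) and without it (11 genes). CCACG alone lay in 74.2% of the 31 windows, in 35.5% of those of all genes and in 52.6% of those of measured genes, with a median of 0.36 with it (22 genes) and 0.19 without it (8 genes). Over all measured genes with a window, the median was -0.07 with ACGTG and -0.08 without it, and -0.08 both with CCACG and without it. The windows of the 31 genes were close in base composition to those of measured genes, with a median GC content of 58.0% against 60.7%. These counts are descriptions, and a match is not a shown binding site.

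The full ERSE lay in 0 of the 31 windows and in 0.137% of those of all genes. Among all measured genes, 15 had it, and these included the chaperone genes Hspa5, Hsp90b1, Calr, Canx and Pdia6 (named after their values were seen). Of the 15, 9 were higher by the 2-fold rule and 0 lower, beside 6.28% and 6.66% of all measured genes. Among the 9, Xlr3a (0.092 and 2.36 RPKM) counted as measured only through Δ/Δ. The rest of the 15 lay within the rule, with log2 ratios from -0.77 (Pan2) to 0.38 (Hnrnpa3). The median log2 ratio of the 15 was 1.47. The median of the coat and receptor genes, 0.36, lay between that and the median of all measured genes.

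Other genes of membrane traffic were given by 8 lists, read by the same rule. Each count below stands beside the shares of all measured genes, 6.28% higher and 6.66% lower. A count of 0 or 1 in lists this short shows nothing about a list. COPII regulators came closest to the coat genes: 0 of 10 measured passed in either direction, 9 of 10 were above 0, and the median was 0.27. Largest were the phosphatase gene Ppp6c (13.96 and 23.1 RPKM, log2 ratio 0.71), the ubiquitin ligase scaffold gene Cul3 (28.7 and 46.5 RPKM, 0.69), Pef1, a calcium-binding partner of that ligase (20.7 and 14.6 RPKM, -0.49), and Mia2, a cargo receptor of exit sites (38.4 and 52.1 RPKM, 0.44).

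Among other cargo receptors, 1 of 15 was higher and 0 lower, with a median of 0.01 that was -0.07 with no filter on low values. The higher one was Bcap29, an ER membrane protein gene (1.49 and 4.18 RPKM, ratio 2.80). Cnih4, a cornichon export receptor, measured 21.6 and 40.6 RPKM (0.90), Ergic1 37.2 and 58.4 RPKM (0.64) and Ergic3 86.7 and 57.9 RPKM (-0.58). The related ERGIC genes thus went opposite ways.

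Tethers and their Rab GTPases had 0 of 25 past the rule and a median of 0.08. Uso1, the tether p115 (2.93 and 6.16 RPKM, 0.96), and Rab1a (12.1 and 23.9 RPKM, 0.95) lay just short of it and passed it after centring (1.05 each), Uso1 also with 0.1 RPKM added (1.05), whereas the TRAPP subunit genes Trappc6a (79.5 and 45.0 RPKM, -0.81) and Trappc5 (16.4 and 9.14 RPKM, -0.81) went the other way. Of 13 further SNARE genes 1 was higher and 0 lower, with a median of -0.06 that turned to 0.03 after centring. That one was Scfd1, the SNARE regulator SLY1 (22.5 and 47.8 RPKM, 1.07), and its relative Scfd2 measured 3.51 and 6.86 RPKM (0.88). Use1 (132 and 82.6 RPKM, -0.67) and Gosr2 (42.9 and 52.3 RPKM, 0.28) followed.

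In the ARF cycle, which recruits COPI, 1 of 11 was higher and 0 lower, with a median of -0.24 that was -0.09 with no filter on low values. Arf4 measured 19.4 and 40.6 RPKM (1.05, but 0.99 as the mean over its transcripts), Arfgap3 8.32 and 12.48 RPKM (0.56), Arfgef1 7.12 and 10.3 RPKM (0.51) and Arf1 110 and 154 RPKM (0.48). In this list 6 of 11 log2 ratios were below 0, whereas all 8 COPI genes were above it. Golgins had 0 of 10 past the rule and a median of -0.08, which turned to 0.01 after centring. Cux1 measured 172 and 106 RPKM (-0.69), Gcc1 6.90 and 5.32 RPKM (-0.35), Trip11 6.78 and 8.18 RPKM (0.25) and Golga1 5.49 and 6.53 RPKM (0.23). Cux1 also encodes a transcription factor from the same locus.

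The clathrin, adaptor and retromer coats act after the Golgi and served as a list of other coats. Of 32 measured, 0 were higher and 1 lower, 13 were above 0, and the median was -0.04 (0.06 after centring), near that of all genes. Cltb, a clathrin light chain gene, was the lower one (20.3 and 7.10 RPKM, log2 ratio -1.45), while Cltc, the heavy chain gene, measured 42.6 and 71.1 RPKM (0.73). Ap3m1 (11.5 and 22.4 RPKM, 0.94, past the rule after centring at 1.03) and Ap4m1 (36.3 and 19.2 RPKM, -0.90) encode adaptor subunits. The difference between this list and the coat genes was not tested.

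**Figure D4:**
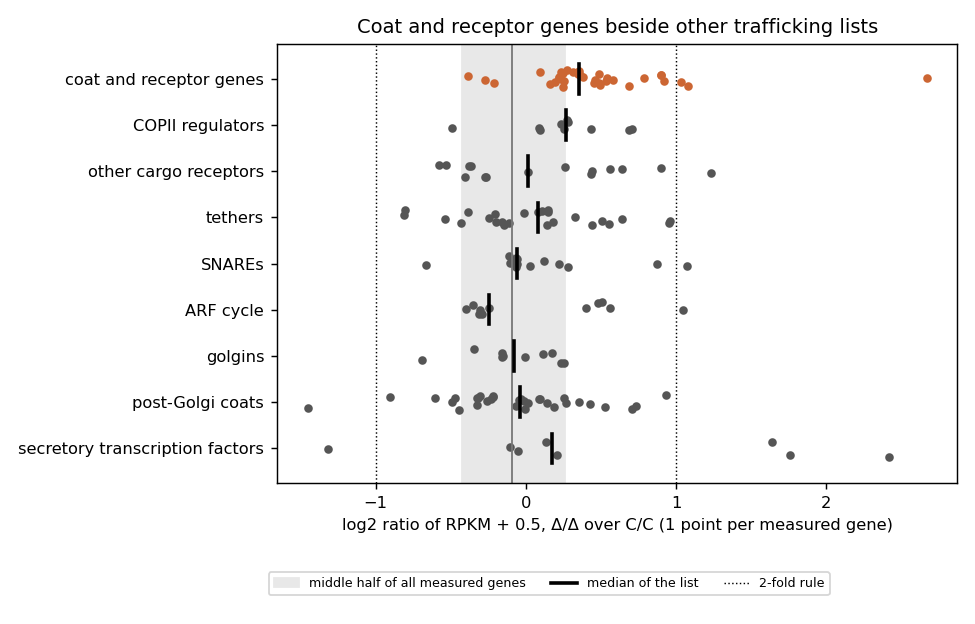
log2 ratio (Δ/Δ over C/C, 0.5 RPKM added to each) of every measured coat and receptor gene and of the measured genes of 8 other trafficking lists, 1 point a gene, with the median of each list as a black bar and the quartiles of all measured genes as a grey band. The coat and receptor genes have a median of 0.36 and COPII regulators of 0.27, and the medians of the other 7 lists lie between -0.24 and 0.17.

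Of the transcription factors known to act on secretory pathway genes, 3 of 8 measured were higher and 1 lower. The shares of all measured genes were 6.28% and 6.66%. Creb3l2, known in cartilage to act on COPII genes, measured 1.44 RPKM in C/C against 9.89 RPKM in Δ/Δ (ratio 6.87, interval 5.41 to 8.74). Xbp1 measured 58.5 and 183 RPKM (ratio 3.13, interval 3.03 to 3.23), and Bhlha15 (MIST1), a factor of secretory cells, 3.43 and 12.8 RPKM (ratio 3.73). Atf6 (11.2 and 10.4 RPKM) lay within the rule, and Tfeb, a regulator of lysosome genes, was lower (56.4 and 22.3 RPKM, log2 ratio -1.32). These are RNA levels and do not give the activity of the proteins. For each factor too, the listed transcript with the highest mean RPKM stood for the gene, and it need not be the full coding one. The Creb3l2 values came from 159 and 1238 reads.

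Plasma cell markers were read beside these values because such cells enlarge the same apparatus. Of 11 markers 7 were measured, 2 higher (Mzb1 and Igha) and 1 lower (Ighg2b), beside 6.28% and 6.66% of all measured genes. Their median log2 ratio was -0.58. Igha (0.113 and 1.13 RPKM) counted as measured only through Δ/Δ. The summed level of the 11 was 567 and 631 RPKM, and without Mzb1 it was 378 and 218 RPKM. No other list was summed with a gene left out, and the remaining sum includes Ighg2b (87.9 and 11.4 RPKM). Irf4 (106 and 59.1 RPKM) and Tnfrsf13b (73.1 and 39.1 RPKM) lay within the rule, with log2 ratios of -0.83 and -0.89. Prdm1, the factor that defines plasma cells, was low in both libraries (0.558 and 0.224 RPKM). Tnfrsf17 was at 0.0290 and 0.0130 RPKM and Sdc1 at 12.3 and 8.02 RPKM. Mzb1, an ER cochaperone gene of B lineage cells, measured 190 and 413 RPKM (ratio 2.18).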

How the data were processed

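Ribosomal RNA-depleted total RNA of 2 cultures was sequenced as 101 bp read pairs, 1 library per genotype, per the labels' protocols. The authors deposited 1 RPKM value per Ensembl transcript and library, rounded to 3 decimals. The submitters' processing notes name TopHat2 2.0.9, bedtools and the builds mm9 and mm10. The table's build, annotation release and treatment of overlapping transcripts are not given by the labels or the file header. Its columns Wt and Del were taken to hold the C/C and Δ/Δ libraries. Symbols came from GENCODE M21 (GRCm38), matched for 89571 of 93615 transcripts.

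The members and lists were chosen with earlier results of these data known. Depth was recovered by finding the number of reads that makes RPKM times exonic length whole. Low values on transcripts 100 to 800 bases long gave whole reads to within 0.1 for 96.5% (C/C) and 95.7% (Δ/Δ). Transcripts with 2 reads outnumbered those with 1, so intervals took 2 reads as 1 fragment. At these depths 3 reads on 2 kilobases are 0.00879 (C/C) and 0.00776 RPKM (Δ/Δ). A non-coding or decay transcript stood for 10 of the 37 genes, and 9 overlap another measured gene. Reads shared with overlapping genes or processed pseudogenes make such values uncertain. Named were Setdb1, all 37 genes, Xbp1, Atf6 and up to 4 measured genes per list, those whose log2 ratio lay farthest from 0. Markers, neighbours and overlapping genes were named beside the values they touch. Analyses ran in Python 3.11.15 with pandas 2.3.3 and SciPy 1.17.1 and were tested on simulated data. Protein sequences were not used here.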

Additional observations from a re-analysis of the deposited data

How the results depend on the processing

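Pseudocount, filter, scaling, transcript choice and size rule were varied one at a time, with the longest coding transcript added after seeing the data. No paired analysis was possible because each genotype has 1 library and the result comes from no test. Sec24d, Tmed10 and Bet1 passed the 2-fold rule, and 0 genes were lower, under every alternative that kept it. The count of higher genes, 3 as reported, was 5 with the highest protein-coding transcript (adding Lman1 and Surf4) and 5 with the longest one (adding Lman1 and Tmed5), 8 at 1.5-fold and 1 at 4-fold. It was 4 after centring or after scaling to 1 RPKM sum that left out the 20 top genes (adding Tmed9) and 4 with the mean or sum over transcripts (adding Lman1). The median log2 ratio of 0.36 was 0.35 with no filter, 0.36 at 5 RPKM, 0.45 after centring, 0.44 with the common sum, 0.40 with the mean and 0.40 with the sum over transcripts, and 0.44 with the longest coding transcript. Of the 36 measured genes 35 kept their direction in the 8 alternatives of pseudocount, scaling and transcript that change values, and Sec24b did not (0.00 on its longest coding transcript). Over all measured genes the counts of 788 higher and 836 lower became 452 and 510 at 5 RPKM, 571 and 507 with the highest and 554 and 462 with the longest coding transcript, 1583 and 2101 at 1.5-fold and 220 and 234 at 4-fold. Rescaling turned their balance, to 906 higher (7.22%) and 728 lower (5.80%) after centring and to 886 and 750 with the common sum. Depth limits Kdelr3 most, at 106 and 104 reads.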
